A study of Mus musculus with 18 samples.

Results

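Retinal ganglion cell genes are described here through 10 transcripts that mark the output neurons of the retina: Rbpms, Pou4f1, Pou4f2, Pou4f3, Thy1, Sncg, Nefl, Nefm, Nefh and Slc17a6. They were picked by symbol from 35006 gene names in each count file, and all 10 were found and tested among 16183 expressed genes. The study asked whether NACET (N-acetylcysteine ethyl ester, a cell-permeable cysteine donor) in the drinking water protects the diabetic retina. All mice were male. WT mice were C57BL/6J, and Akita mice (C57BL/6-Ins2Akita/J) carried 1 mutant copy of the insulin gene Ins2, a dominant mutation that leaves them insulin deficient and diabetic. Both genotypes received either plain water or water with 0.33 mg/mL NACET, a daily intake of 50 mg/kg, from 4 to 24 weeks of age. Whole-retina poly(A) RNA gave 3 libraries of WT, 6 of WT + NACET, 4 of Akita and 5 of Akita + NACET, with 11590384 to 18073791 counts in genes per library. The labels do not say whether each library is 1 mouse, so the p-values below measure the spread between libraries.

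Ganglion cells collect the signals of bipolar and amacrine cells and send them through the optic nerve to the brain. They are glutamatergic neurons with long axons rich in neurofilaments, they are specified by POU class IV transcription factors that bind AT-rich DNA, and they are a small minority of retinal cells beside the abundant rods. Loss of ganglion cells and thinning of the nerve fibre layer are known early features of diabetic eye disease in rodents. A whole-retina library holds RNA of all these cells at once, and levels are shares of it. Fewer ganglion cells, less RNA per ganglion cell and a larger share of RNA from other cells therefore cannot be told apart.

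In these retinas none of the 10 genes passed the test in any comparison. Of all genes, 7.64% passed in Akita against WT and 9.65% in Akita + NACET against Akita. The share was 13.3% in Akita + NACET against WT + NACET and 20.3% for the interaction of genotype with NACET. It was 1.48% in WT + NACET against WT and 0.00618% in Akita + NACET against WT. At such shares these 10 genes can lack a call without differing from other genes. All 10 had a lower mean in Akita than in WT, between 65.5% of the WT mean (Pou4f3) and 83.3% (Nefl), and all 10 had a higher mean in Akita + NACET than in Akita. None of these differences passed the adjusted test. Akita replicate 4 had the lowest level of all 18 libraries for 10 of 10 genes, and WT replicate 1 had the highest for 7. Leaving out both took the median log2 fold change between Akita and WT from -0.42 to 0.03. These 2 libraries were chosen after their values were seen, and as the lowest and highest of their groups their removal had to narrow that difference.

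Akita replicate 4 also stood apart in the markers of other cells. Its 9 rod markers summed to 204878 CPM (counts scaled to library size), against 88233 to 158849 CPM in the other 17 libraries, while its sums for amacrine cells (1044 CPM, 9 genes), Mueller glia (2141 CPM, 9 genes), horizontal cells (236 CPM, 5 genes) and the ganglion cell genes (665 CPM) were the lowest of all libraries. No marker of these lists was at 0 in all libraries. Transcripts of 7 lens markers summed to 23238 CPM in WT + NACET replicate 5, 2784 in Akita replicate 2, 1228 in Akita + NACET replicate 3 and 338 in Akita + NACET replicate 5, and to at most 59.3 CPM in the other libraries. Reads outside exons made up 9.67 to 13.3% of the reads in Akita against 14.9 to 17.1% in WT. They made up 14.3 to 19.8% in Akita + NACET and 9.55 to 16.6% in WT + NACET. Akita overlapped neither WT nor Akita + NACET in this share. A fit with the share as a covariate therefore cannot tell it apart from these group differences. What part these differences have in the results below was not tested.

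Levels of different genes can be compared only per length, as CPM per kb of annotated exon. On that scale Sncg was the highest member (262 ± 74.8, SD, n = 18), followed by Nefl (233 ± 54.6) and Thy1 (79.7 ± 19.9). Slc17a6 (22.8 ± 5.60), Nefh (17.5 ± 4.21), Rbpms (17.4 ± 3.83), Nefm (14.6 ± 3.87) and Pou4f1 (13.7 ± 3.09) lay close together, and Pou4f3 (4.62 ± 1.18) and Pou4f2 (1.10 ± 0.313) were lowest. Most steps in this order held in every library: Nefl stood above Thy1, Thy1 above Slc17a6, Slc17a6 above Nefh, Pou4f1 above Pou4f3 and Pou4f3 above Pou4f2 in 18 of 18. Sncg exceeded Nefl in 15 of 18, Rbpms exceeded Nefm in 16 and Nefm exceeded Pou4f1 in 14. Nefh and Rbpms were not separated, with Nefh higher in 8 of 18.

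**Figure D1:**
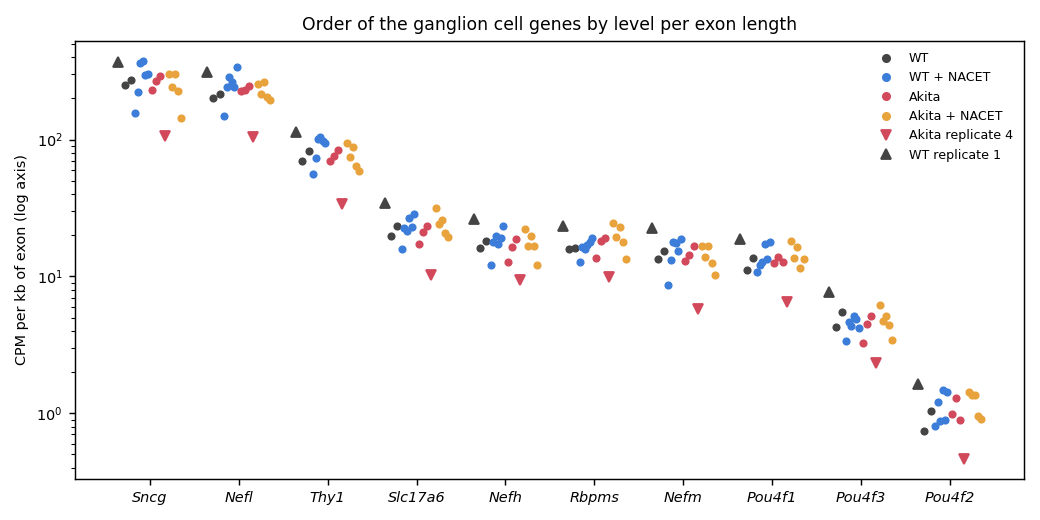
CPM per kb of exon (log axis) of the 10 ganglion cell genes in each of the 18 libraries, coloured by group, with genes ordered by their mean. Triangles mark Akita replicate 4, the lowest library for all 10 genes, and WT replicate 1, the highest for 7. The order runs from Sncg (mean 262) to Pou4f2 (mean 1.10).

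Rbpms encodes an RNA-binding protein that is used as a marker of nearly all ganglion cells. The gene lies on chromosome 8 (34893116 to 35040313, minus strand, mm9). Rbpms was at 65.2, 44.2 and 45.0 CPM in the WT libraries and at 37.6, 50.7, 53.0 and 27.4 CPM in the Akita libraries. In Akita + NACET it was at 68.5, 53.6, 63.8, 49.3 and 37.0 CPM, and in WT + NACET it ran from 35.2 to 53.4 CPM with a median of 46.3. The groups overlapped, with WT replicate 1 and Akita + NACET replicates 1 and 3 high and Akita replicate 4 low. The log2 fold change was -0.28 ± 0.22 (SE) for Akita against WT (edgeR, adjusted p = 0.427) and 0.36 ± 0.19 for Akita + NACET against Akita (adjusted p = 0.224).

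Pou4f1, Pou4f2 and Pou4f3 encode BRN3A, BRN3B and BRN3C, POU factors that act in ganglion cell differentiation, survival and subtype identity. Pou4f1 (chromosome 14, 104862737 to 104867216, minus strand, mm9) was at 53.3, 31.6 and 38.3 CPM in WT and at 35.6, 39.3, 36.1 and 18.3 CPM in Akita. Akita + NACET gave 51.4, 38.4, 46.5, 32.4 and 38.1 CPM, and WT + NACET 30.4 to 50.5 CPM with a median of 36.8. Apart from replicate 4, the Akita libraries lay inside the WT range. Pou4f2 (chromosome 8, 80956908 to 80960551, minus strand, mm9) was the least abundant member, with 18 to 84 counts per library and group means of 2.93 to 3.87 CPM, so that counting error is a larger part of its spread than for the others.

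Pou4f3 (chromosome 18, 42554251 to 42555747, plus strand, mm9) had the most negative estimate of the members in Akita against WT. It was at 8.76, 4.88 and 6.32 CPM in WT and at 3.72, 5.15, 5.90 and 2.65 CPM in Akita. Akita + NACET gave 7.03, 5.42, 5.93, 5.10 and 3.92 CPM, and WT + NACET 3.87 to 5.90 CPM with a median of 5.18. Akita replicates 2 and 3 lay within the WT range and replicates 1 and 4 below it. The log2 fold change of Akita against WT was -0.60 ± 0.25, with an unadjusted p of 0.0239 in edgeR that did not pass the adjustment (0.123), and it was -0.19 without Akita replicate 4 and WT replicate 1.

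Thy1 and Sncg are abundant ganglion cell transcripts, for a surface glycoprotein of the immunoglobulin family and for gamma-synuclein. Thy1 (chromosome 9, 43851467 to 43856662, plus strand, mm9) was at 198, 120.2 and 143 CPM in WT and at 121, 132, 146 and 58.4 CPM in Akita. In Akita + NACET it was at 163, 130.1, 154, 111 and 101 CPM, and in WT + NACET at 97.0 to 179.8 CPM with a median of 166. Akita replicates 1 to 3 again fell among the WT libraries. Sncg (chromosome 14, 35183460 to 35187975, minus strand, mm9) was at 313, 214 and 234 CPM in WT against 196, 229.9, 248 and 89.8 CPM in Akita, and its group mean in Akita + NACET was 207 ± 55.7 CPM (SD, n = 5). The log2 fold changes of Akita + NACET against Akita were 0.20 ± 0.25 for Thy1 (edgeR, adjusted p = 0.617) and 0.12 ± 0.30 for Sncg (adjusted p = 0.834).

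Nefl, Nefm and Nefh encode the light, medium and heavy neurofilament subunits, which assemble together and set the calibre of large axons. Nefl and Nefm are neighbours on chromosome 14 in mm9. Nefl (68701920 to 68707152, plus strand) lies inside the annotated span of Nefm (68700647 to 68742903, minus strand) without shared exon bases, and reads were counted without strand. Nefl was at 1051, 682 and 731 CPM in WT and at 767, 785, 834 and 351 CPM in Akita. It was at 860.4, 729, 887, 692 and 659 CPM in Akita + NACET, and in WT + NACET it ran from 499 to 1146 CPM with a median of 852. Akita replicates 1 to 3 thus exceeded WT replicates 2 and 3, and replicate 4 was below every other library.

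The levels of the neurofilament genes differed 2.79 to 3.88-fold between the highest and the lowest library, and their ratios by less. Across 18 libraries the ratio of Nefm to Nefl counts was 0.106 ± 0.00960 (SD) and that of Nefh to Nefl 0.0898 ± 0.0109. Akita replicate 4 had a Nefm to Nefl ratio of 0.0956 and a Nefh to Nefl ratio of 0.108, the highest of the 18. The ratio of Nefh to Nefm ran from 0.670 to 1.13, again highest in Akita replicate 4. Nefm averaged 98.6 ± 28.1 CPM in WT and 72.0 ± 27.0 CPM in Akita. Nefh (chromosome 11, 4838757 to 4848067, minus strand, mm9) averaged 81.1 ± 21.7 CPM in WT and 57.5 ± 16.6 CPM in Akita, a log2 fold change of -0.49 ± 0.25 (edgeR, adjusted p = 0.204).

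Slc17a6 encodes VGLUT2, the vesicular glutamate transporter with which ganglion cells load synaptic vesicles, and lies on chromosome 7 (58877200 to 58926495, plus strand, mm9). It was at 149, 85.9 and 101 CPM in the WT libraries and at 75.0, 91.5, 101 and 44.2 CPM in Akita replicates 1 to 4. Akita + NACET gave 135, 104, 111, 89.6 and 84.4 CPM, and WT + NACET 68.1 to 122 CPM with a median of 98.3. Slc17a6 had the largest positive estimate for NACET in Akita mice, a log2 fold change of 0.43 ± 0.23 (edgeR, adjusted p = 0.225), and that estimate was 0.23 without Akita replicate 4 and WT replicate 1.

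Promoters were matched for 4 members by symbol in RefSeq (GRCm38.p6), with 5 windows of 250 bases ending at a transcript start. Printed 5′ to 3′ are the windows of the BRN3A and BRN3B genes and the second window of Slc17a6, the only one of the 5 that held the POU class IV core. Capitals mark matches on either strand to TATAA (the core of a TATA box), ATTAAT (a palindromic POU class IV core) or TGACNNNGC (the core of the antioxidant response element, which NRF2 binds).
Pou4f1, chr14:104468000-104468249, minus strand: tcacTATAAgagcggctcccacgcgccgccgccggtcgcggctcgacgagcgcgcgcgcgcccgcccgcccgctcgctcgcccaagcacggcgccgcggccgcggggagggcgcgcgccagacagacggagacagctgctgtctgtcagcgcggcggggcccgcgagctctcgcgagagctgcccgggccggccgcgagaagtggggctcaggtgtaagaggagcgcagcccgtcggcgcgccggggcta
Pou4f2, chr8:78436648-78436897, minus strand: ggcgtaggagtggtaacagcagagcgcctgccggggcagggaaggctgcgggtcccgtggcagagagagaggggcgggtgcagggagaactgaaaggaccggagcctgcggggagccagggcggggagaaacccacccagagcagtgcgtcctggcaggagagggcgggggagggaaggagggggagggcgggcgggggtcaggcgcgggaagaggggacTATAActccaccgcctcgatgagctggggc
Slc17a6, second window, chr7:51624387-51624636, plus strand: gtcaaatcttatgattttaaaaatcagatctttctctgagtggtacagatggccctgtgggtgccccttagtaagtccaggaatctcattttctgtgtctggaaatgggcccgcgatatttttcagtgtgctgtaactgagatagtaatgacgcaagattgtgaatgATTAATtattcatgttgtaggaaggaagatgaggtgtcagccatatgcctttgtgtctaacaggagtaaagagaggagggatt
The Pou4f1 window was 78.0% GC with 47 CpG sites and the Pou4f2 window 70.8% GC with 17. The second window of Slc17a6 was 41.2% GC with 3 CpG sites, and its first window, not printed, was 53.2% GC with 7. The median was 52.4% GC over 32851 windows. The TATAA of Pou4f2 began 30 bases before the start. Of all windows, 22.8% held TATAA, 4.39% held ATTAAT and 10.2% held the antioxidant response element core, which was in none of the 5 windows of members. These are matches of letters and say nothing of binding.

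**Figure D2:**
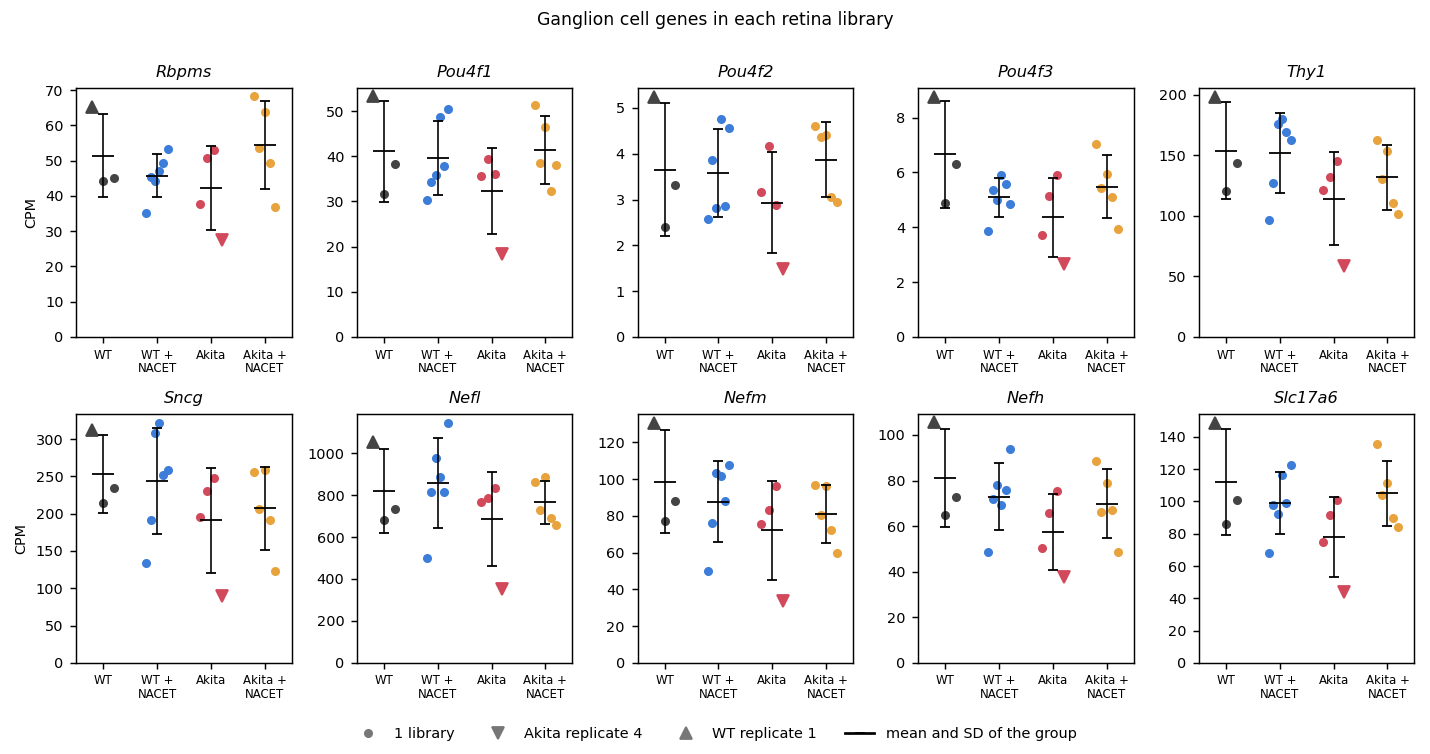
CPM of each ganglion cell gene in every library, by group, with black bars for the mean and SD (WT n = 3, WT + NACET n = 6, Akita n = 4, Akita + NACET n = 5). The down triangle is Akita replicate 4, the lowest point of all 10 panels, and the up triangle is WT replicate 1, the highest point in 7. The groups overlap in every panel.

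For Akita against WT, the genotype comparison, 0 of 10 members passed the edgeR quasi-likelihood test at an adjusted p of 0.05, where 7.64% of all tested genes did. Only Pou4f3 had an unadjusted p under 0.05 in edgeR, and DESeq2 called 0 members with 3 under 0.05 when all groups were fitted and 1 when only these groups were. The median log2 fold change of the members was -0.42 (range -0.60 to -0.26), beside -0.01 over all genes. The 95% confidence intervals ran from -1.13 to 0.35, so these libraries left room for levels from 0.458 to 1.27 times WT. No member separated the groups without overlap, against 23.2% of all genes. With single libraries left out the median ran from -0.56 (without Akita replicate 3) to -0.19 (without Akita replicate 4), with -0.20 without WT replicate 1 and -0.55 without WT replicate 2, and 3 members had an unadjusted p under 0.05 in edgeR without Akita replicate 3 or WT replicate 2. The share over all genes rests on single libraries: its 1237 calls were all lost without WT replicate 1 or WT replicate 2 and fell to 234 without Akita replicate 4. A fit that took each library's outside-exon share as a covariate gave a member median of -0.68, again with no member called. That fit called 0 of all genes. Akita and WT did not overlap in this share, so the fit cannot tell it apart from genotype.

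For Akita + NACET against Akita, the treatment comparison in diabetic mice, 0 of 10 members were called against 9.65% of all genes. No member had an unadjusted p under 0.05 in edgeR, and DESeq2 had 1 in either fit and called none. The median log2 fold change was 0.30 (0.12 to 0.43), beside 0.00 over all genes, and the confidence intervals ran from -0.52 to 0.96. No member was free of overlap, against 14.1% of all genes. With single libraries left out the median ran from 0.14 (without Akita replicate 4) to 0.39 (without Akita replicate 3, with 3 members at an unadjusted p under 0.05 in edgeR). The 1562 calls over all genes fell to 1 without Akita replicate 4 and to 101 without Akita + NACET replicate 5. This comparison uses the same 4 Akita libraries as Akita against WT, so a low Akita library moves both in opposite directions.

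In the other comparisons 0 of 10 members were called as well, by edgeR and by DESeq2. WT + NACET against WT had a median member log2 fold change of -0.11, where 1.48% of all genes were called. Akita + NACET against WT had a median of -0.16 with intervals from -0.98 to 0.70, where 0.00618% of all genes, a single gene, were called. Akita + NACET against WT + NACET, the genotype comparison among treated mice, had a median of 0.00 with 5 members up and 5 down. Its estimates ran from -0.24 to 0.25 and its intervals from -0.81 to 0.62, where 13.3% of all genes were called. Neither Akita replicate 4 nor WT replicate 1 is in its groups, but the spread behind its intervals was estimated from all 18 libraries, with both included. None of these 3 had a member with an unadjusted p under 0.05 in edgeR or DESeq2. The interaction of genotype with NACET had a median of 0.41 with all 10 estimates positive, where 20.3% of all genes were called, and 1 member, Pou4f3, had an unadjusted p under 0.05 in edgeR, with 1 in DESeq2. The interaction of Pou4f3 was 0.70 ± 0.31 on the log2 scale (edgeR, adjusted p = 0.114). Without Akita replicate 4 and WT replicate 1 the interaction median was -0.08.

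**Figure D3:**
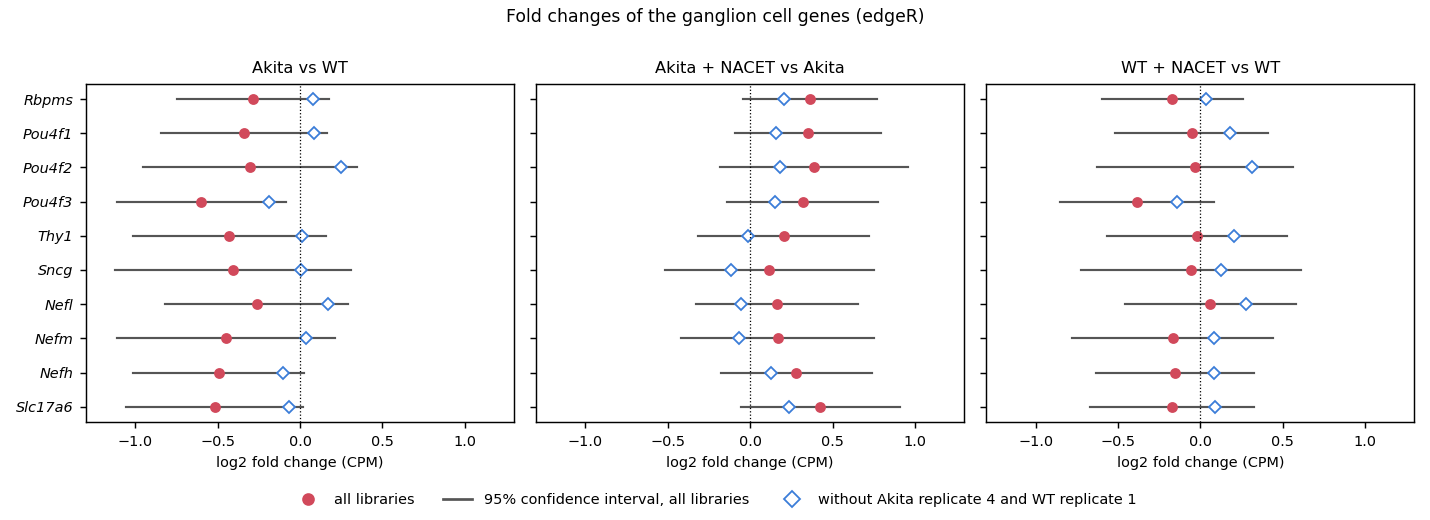
Log2 fold changes of the 10 genes in Akita against WT, Akita + NACET against Akita and WT + NACET against WT, with 95% confidence intervals from edgeR (red points and grey lines), and the same estimates with Akita replicate 4 and WT replicate 1, chosen for their extreme values, left out (open diamonds). The Akita against WT estimates lie at -0.60 to -0.26 with all libraries and have a median of 0.03 without those 2.

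The members varied together from library to library. Over the 18 libraries the 45 pairs of members had a median Pearson correlation of log2 CPM of 0.88, from 0.70 (Pou4f2 and Sncg) to 0.97 (Thy1 and Nefm). Without Akita replicate 4 and WT replicate 1 the median was 0.70, and with the group means subtracted it was 0.89. The points share library, depth and tissue makeup, so these are descriptions. The spread within groups was also wider than usual, with a median coefficient of variation of 33% for members in Akita against 16.4% for all tested genes, and of 26.9% against 12.9% in WT. These groups hold Akita replicate 4 and WT replicate 1. The excess was smaller in WT + NACET (21.1% against 14.4%) and in Akita + NACET (20.5% against 13.9%).

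Amacrine cells are interneurons of the inner retina that contact ganglion cells. The sum of their 9 markers was lowest in Akita replicate 4 and highest in WT replicate 1, as were most ganglion cell genes. The summed members divided by the summed amacrine markers gave 0.703 ± 0.0428 in WT, 0.781 ± 0.0607 in WT + NACET, 0.774 ± 0.0918 in Akita and 0.739 ± 0.0603 in Akita + NACET (SD), and all groups overlapped. In these plain sums single genes weigh most. In WT, Nefl averaged 821 of the 1624 CPM of the members, and Calb2 1220 of the 2295 CPM of the amacrine markers. The ratio thus rests largely on Nefl and Calb2 and does not measure ganglion cells per amacrine cell. In Akita against WT, where 7.64% of all genes were called, 6 of 9 amacrine markers fell and 3 of 9 rod markers rose, with 0 of 8 bipolar markers called (edgeR, 1 at an unadjusted p under 0.05). In Akita + NACET against Akita, where 9.65% were called, 5 of 9 rod and 4 of 9 cone markers fell and 2 of 9 amacrine and 2 of 5 red cell markers rose. The Akita against WT calls were all lost without WT replicate 1 or 2. In Akita + NACET against Akita only 1 of all genes was still called without Akita replicate 4, and 101 without Akita + NACET replicate 5. The part of these marker differences in the ganglion cell values was not tested.

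**Figure D4:**
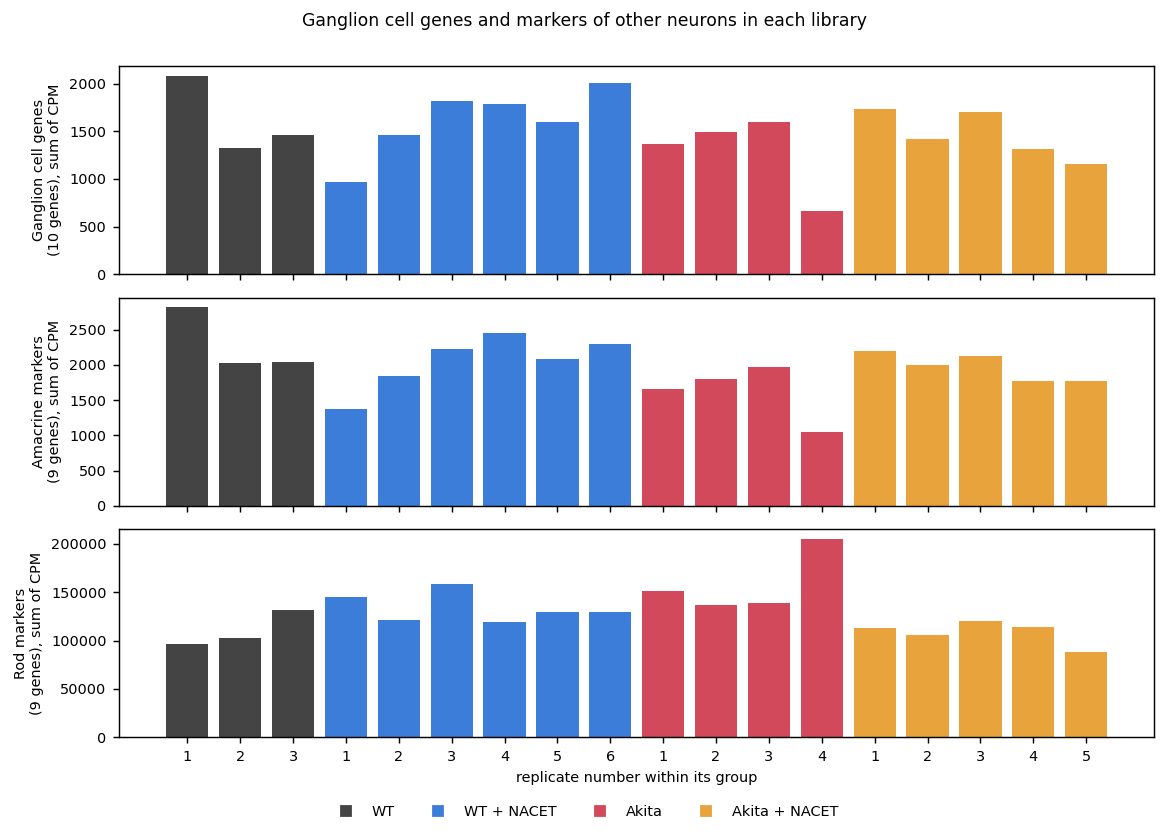
Summed CPM of the 10 ganglion cell genes, of 9 amacrine markers and of 9 rod markers in each library, coloured by group. Akita replicate 4 has the lowest ganglion cell sum (665 CPM), the lowest amacrine sum (1044 CPM) and the highest rod sum (204878 CPM).

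Among the 14462 genes with a mean of at least 1 CPM that are no members, those most like Rbpms over the 18 libraries included Nell2 (Pearson r = 0.94), Elavl2 (0.93), Paqr7 (0.92) and Vamp1 (0.92). Those most like the mean z-score of all members were Chrna6, Nsg1, Rgs4, Nsg2 and Sult4a1 (all 0.97). Without Akita replicate 4 and WT replicate 1 these 9 values lay between 0.86 and 0.93.

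Of 24 tested other genes of ganglion cells and their subtypes, 1 rose and 1 fell in Akita against WT (8.33%, beside 7.64% of all genes), with a median of -0.39, and 11 had an unadjusted p under 0.05 in edgeR (45.8%, beside 27.0% of all genes). Ebf3, a transcription factor gene, fell by 0.90 on the log2 scale (edgeR, adjusted p = 0.0165), and Jam2, an adhesion molecule gene of a direction-selective ganglion cell type, rose by 0.41 (adjusted p = 0.0267). In Akita + NACET against Akita, Jam2 fell by 0.45 (adjusted p = 0.0161) and 2 genes rose, Ebf1 by 0.56 and Chrnb3, a nicotinic receptor subunit gene, by 0.58 (adjusted p = 0.0409 and 0.0414), with a list median of 0.23. These 3 calls are 12.5% of the list, beside 9.65% of all genes. The 3 calls of the treatment comparison were lost without Akita replicate 4, as was that of Jam2 in Akita against WT, and both Akita against WT calls were lost without WT replicate 1 or 2. Ebf1 and Chrnb3 also lost theirs without Akita replicate 1 or Akita + NACET replicate 1, 2 or 5, Ebf1 without Akita replicate 2 and Chrnb3 without Akita + NACET replicate 3.

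Of 19 tested genes of the axonal cytoskeleton and initial segment, Mapt, which encodes tau, fell by 0.59 in Akita against WT (edgeR, adjusted p = 0.0346) and Dync1h1, the dynein motor heavy chain gene, rose by 0.56 (adjusted p = 0.0227), with a median of -0.29. The calls of Mapt and Dync1h1 were 10.5% of the list, beside 7.64% of all genes. Nrcam, a cell adhesion gene of the initial segment, rose by 0.30 in Akita + NACET against Akita (edgeR, adjusted p = 0.0399), with a median of 0.15. It was the only call there (5.26% of the list, beside 9.65% of all genes). In Akita + NACET, Ank2 was higher by 0.32 and Nfasc by 0.37 than in WT + NACET (edgeR, adjusted p = 0.0226 and 0.0331), with a median of 0.04. The calls of Ank2 and Nfasc were 10.5% of the list, beside 13.3% of all genes. Ank2 was at 207 ± 10.6 CPM in WT, 174 ± 26.2 in WT + NACET, 216 ± 12.2 in Akita and 217 ± 13.8 in Akita + NACET (SD). WT + NACET was thus its lowest group. The Mapt, Dync1h1 and Nrcam calls were lost without Akita replicate 4, Mapt and Dync1h1 also without WT replicate 1 or 2, Mapt without Akita replicate 1, Nrcam without Akita replicate 1 or 3 or Akita + NACET replicate 1, 2, 4 or 5, and the Ank2 and Nfasc calls without Akita + NACET replicate 2 or 5 or WT + NACET replicate 3, 5 or 6.

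Among 11 tested injury response genes, only 1 was called in either Akita comparison (9.09% each time, beside 7.64% and 9.65% of all genes). This was Map3k12, whose kinase DLK relays axon injury to the nucleus. It fell by 0.40 in Akita against WT (edgeR, adjusted p = 0.0200) and rose by 0.30 in Akita + NACET against Akita (adjusted p = 0.0308), with the first call lost without WT replicate 1 or 2 and the second without Akita replicate 3 or 4 or Akita + NACET replicate 2, 4 or 5. Atf3 is a stress-induced transcription factor gene of injured neurons. It was higher by 1.37 in Akita + NACET than in WT + NACET (edgeR, adjusted p = 0.00385) and kept its call in all 21 settings. It was the only call of the list there (9.09%, beside 13.3% of all genes). Atf3 was at 21.6 ± 8.25 CPM in WT, 10.6 ± 1.11 in WT + NACET, 21.8 ± 5.42 in Akita and 27.4 ± 10.7 in Akita + NACET (SD). WT + NACET was thus the low group, and the Akita mean was close to that of WT. The list medians were -0.40, 0.30 and 0.06 in these comparisons.

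Of 11 tested trophic factor and receptor genes, 2 fell in Akita against WT and rose in Akita + NACET against Akita. They were 18.2% of the list each time, beside 7.64% and 9.65% of all genes. Only Cntfr was called in WT + NACET against WT (9.09%, beside 1.48%) and in Akita + NACET against WT + NACET (9.09%, beside 13.3%). Cntfr, the receptor for ciliary neurotrophic factor, was at 18.8 ± 4.51 CPM in WT, 9.56 ± 1.61 in WT + NACET, 9.62 ± 1.64 in Akita and 18.6 ± 6.54 in Akita + NACET (SD). Its log2 changes were -0.97 in Akita against WT (edgeR, adjusted p = 0.0237), 0.96 in Akita + NACET against Akita (adjusted p = 0.0203) -0.97 in WT + NACET against WT (adjusted p = 0.0260) and 0.96 in Akita + NACET against WT + NACET (adjusted p = 0.00386). Gfra1, a coreceptor for GDNF, fell by 0.69 and rose by 0.56 (adjusted p = 0.0295 and 0.0377). The rises of both in the treatment comparison were lost without Akita replicate 4 or Akita + NACET replicate 5, and the 3 falls without WT replicate 1 or 2. For Gfra1 the rise was also lost without Akita replicate 3 or Akita + NACET replicate 2 or 4, and the fall without Akita replicate 3 or 4. The fall of Cntfr in WT + NACET against WT was also lost without WT + NACET replicate 3. The rise of Cntfr in Akita + NACET against WT + NACET was lost once reads outside exons were a covariate (edgeR, adjusted p = 0.146). That fit called 194 of all genes there in place of 2148. Every call of these lists in Akita against WT and in Akita + NACET against Akita was lost in it too. In both of those comparisons it called 0 of all genes and cannot tell the covariate apart from the groups. The list medians were -0.44 and 0.28 in the Akita comparisons.

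Of 6 paralogs of members, Slc17a7, which encodes the transporter VGLUT1 of photoreceptors and bipolar cells, rose by 0.62 in Akita against WT (edgeR, adjusted p = 0.0270) and fell by 0.53 in Akita + NACET against Akita (adjusted p = 0.0258). Slc17a8 fell by 0.94 in Akita against WT (edgeR, adjusted p = 0.0283). The calls were 33.3% of the list in Akita against WT, beside 7.64% of all genes. In Akita + NACET against Akita they were 16.7%, beside 9.65%. These 3 calls were lost without Akita replicate 4, and the Akita against WT calls also without WT replicate 1 or 2. That of Slc17a8 was also lost without Akita replicate 3. The fall of Slc17a7 was also lost without Akita + NACET replicate 2 or 5 and in edgeR on 2 groups. All 9 named calls of the 5 lists in Akita against WT were lost in edgeR on 2 groups, which called 148 of all genes. Sncb, Rbpms2, Ina and Prph were not called in any comparison.

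In Akita + NACET against WT the single gene called was in none of these 5 lists (DESeq2 called 10 genes in all with every group fitted and 28 with these groups alone), with edgeR unadjusted p-values under 0.05 for 3 of 24 ganglion cell genes, 0 of 19 axon genes, 2 of 11 injury genes, 1 of 11 trophic genes and 1 of 6 paralogs, beside 4.63% of all genes. In Akita against WT such p-values were found for 11, 6, 3, 5 and 3 genes of these lists, beside 27.0% of all genes, and in Akita + NACET against Akita for 9, 6, 4, 3 and 1, beside 29.0%. The interaction of genotype with NACET called 6 positive and 1 negative of the 24, 4 positive of the 19, 3 positive and 1 negative of the first 11, 4 positive of the second 11, and 1 negative of the 6 paralogs, beside 20.3% of all genes, with medians of 0.52, 0.27, 0.59, 0.32 and 0.29 on the log2 scale.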

How the data were processed

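Retina RNA-seq of 18 libraries was used, grouped by the sample labels. Per the labels and the study's methods, the authors made poly(A) libraries (TruSeq RNA v2), aligned reads to mm9 with TopHat2 2.1.0 and, with HTSeq 0.11.2, assigned reads to the exons of each gene irrespective of strand, leaving out reads that map to several places. The deposited values are raw read counts per gene, 1 file per library. The entry without a name (0.0054% of counts on average), 5 summary entries and 185 ribosomal RNA genes were left out.

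The main test was the edgeR 4.0.16 quasi-likelihood F test (R 4.3.3; TMM, minimum count 10, minimum total 15, robust, all 4 groups in 1 fit). P-values were adjusted by Benjamini-Hochberg over 16183 genes and called at 0.05. DESeq2 1.42.0, the study's tool, was an alternative, with other filters, scalings, covariates and each library left out. CPM use TMM library sizes, and exon lengths, coordinates and overlaps come from GENCODE for mm9. Correlations use log2(CPM + 1). Depth was 11590384 to 18073791 counts in genes per library, and low genes carry larger counting errors. No replicates agreed within sampling noise (chi-square over degrees of freedom 4.67 to 50.8). All 10 members are named in every comparison, and of each further list at most the 4 called genes with the smallest p. The members and lists were chosen with earlier results of these data known. Listed genes absent from the count tables used were not analysed here, and some results are not reported here.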

Additional observations from a re-analysis of the deposited data

Results flagged for a closer look

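Nefl was at 351 CPM in Akita replicate 4, far below the nearest Akita library (767 CPM), with a gap of 0.861 of the range of the 4 libraries against a critical value of 0.829. It was 1 of 30 groups of member values examined, and chance marks about 1 in 20. Akita replicate 4 was the lowest library for the other 9 members too, without reaching that limit. Among 22 further named genes, 3 groups had such a sample: Nfasc in Akita replicate 4 (135 CPM, nearest 108), Atf3 in Akita replicate 3 (29.9 CPM, nearest 20.3) and Gadd45a in WT + NACET replicate 4 (30.9 CPM, nearest 41.2). With members and named genes together, 4 of 96 groups were marked, which is no more than the 1 in 20 that chance marks.

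The effect of NACET differed between Akita and WT for 17 named genes of the further lists by the interaction test of edgeR. None of the 10 members was called, where 20.3% of all genes were. At most 4 called genes of each list are named, while 7 of the 24 ganglion cell genes were called (29.2%). Among ganglion cell genes the interaction (log2) was 0.95 for Chrnb3, -0.48 for Jam2, 1.38 for Irx3 and 0.76 for Ebf1. Among axon genes it was 0.48 for Nrcam, 0.69 for Mapt, 0.52 for Ank3 and 1.02 for Cntn2. Among injury response genes it was 0.59 for Map3k12, 1.35 for Atf3, -0.71 for Gadd45a and 1.21 for Bbc3. Among trophic factor and receptor genes it was 1.93 for Cntfr, 0.74 for Ngfr, 0.78 for Ret and 0.67 for Gfra1. For the paralog of Slc17a6 it was -0.73 (Slc17a7). All 17 lost the call once reads outside exons were a covariate, 13 lost it without WT replicate 1, 9 without WT replicate 2 and 8 without Akita replicate 4. With Akita replicate 4 and WT replicate 1 both left out, 14 lost it. The covariate fit left 17 interaction calls over all genes in place of 3289. Akita overlapped neither WT nor Akita + NACET in the covariate. That fit therefore cannot separate the covariate from the groups, and the losses under it do not test these calls.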

How the results depend on the processing

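No member was called in any of the 6 comparisons under any alternative run (2 DESeq2 fits, DESeq2 size factors, no filter, a mean count of at least 50, ribosomal RNA genes kept, edgeR on 2 groups, a replicate block, a covariate for reads outside exons, each library left out, and, chosen after seeing the data, Akita replicate 4 and WT replicate 1 both left out). Of 1200 member values under alternatives, 85 had the other sign and 0 were called, and the lowest adjusted p was 0.0581 in the interaction and 0.0673 in Akita vs WT. With single libraries left out, 0 to 0 members were called. The numbers of the replicates do not pair the libraries (median correlation of same-numbered libraries -0.02, of differently numbered ones 0.01). With the replicate block 0 members were called, with medians of -0.38 in Akita vs WT and 0.34 in Akita + NACET vs Akita, and 507 and 219 genes in place of 1237 and 1562. Over all settings the members' median ran from -0.68 to 0.03 in Akita vs WT, from 0.14 to 0.47 in Akita + NACET vs Akita, from -0.30 to 0.07 in Akita + NACET vs WT, from -0.33 to 0.11 in WT + NACET vs WT, from -0.09 to 0.13 in Akita + NACET vs WT + NACET and from -0.08 to 0.87 in the interaction. The genes called in all ranged from 0 to 2078 in Akita vs WT and from 0 to 2392 in Akita + NACET vs Akita. The cause was not tested. The median SE of members in Akita vs WT was 0.26 on the log2 scale, against 0.17 over all genes, which limits what these libraries can show.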
